A study of Mus musculus with 9 samples.

Results

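The genes described here were 8 annexins (Anxa1, Anxa2, Anxa3, Anxa4, Anxa5, Anxa6, Anxa7 and Anxa11) and 2 S100 partners (S100a10 and S100a11) in mouse liver. They were taken by symbol from the deposited expression tables, with the condition that a gene was above 0 in at least 1 liver. This gave 10 genes of the 23183 listed, of which 16889 were above 0 in at least 1 liver. All 10 also reached the minimum mean level of 1 FPKM (fragments per kilobase of transcript, scaled to sequencing depth) used for testing in each comparison.

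The study examined a polymethoxyflavone-rich fraction (PRF) from Citrus sunki leaf in diet-induced obesity. RNA was sequenced from 9 livers of male C57BL/6J mice at postnatal day 100, with 3 mice in each of 3 groups and no genetic modification given. The ND mice ate a normal diet with 14% fat, and the HFD mice ate a high-fat diet with 60% fat for 10 weeks. The PRF 50 mice ate the same high-fat diet and received 50 mg of PRF per kg of body weight daily by mouth in the last 5 weeks. Whether the other groups received the vehicle is not given in the sources used here. Mice are named below by group and number, and the numbers do not pair mice across groups.

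Annexins are cytosolic proteins that bind acidic phospholipids in membranes when calcium is present, and they act in membrane organization, vesicle traffic and membrane repair. S100 proteins are small proteins, most of which bind calcium. S100a10 forms a complex with Anxa2, and S100a11 binds Anxa1. Steatosis is the storage of neutral lipid in hepatocytes, in droplets coated by perilipins and CIDE proteins.

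Relative depth was estimated as the most frequent FPKM ratio of HFD mouse 1 to each liver. Genes above 0 and under 0.1 FPKM in both livers were used. The estimate ran from 0.959 in PRF 50 mouse 10 to 1.60 in HFD mouse 3, with HFD mouse 1 set to 1. The livers had 14372 to 14980 genes above 0. Read counts are unknown, so the counting error of a value is unknown. Of 10 hepatocyte markers 9 were above 0, led by Apoa2 with a mean of 18938 FPKM. The albumin gene Alb was listed at 0 in all 9 livers, so an entry of 0 in these tables was not read as a silent gene.

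On the FPKM scale S100a10 had the highest mean level of the 10 genes over the 9 livers, 176 ± 58.2 (SD, n = 9). It was above 97.2% of the genes detected, and its lowest liver (107 FPKM) lay above the highest liver of the next gene, Anxa5. Anxa5 (40.2 ± 5.28 FPKM), Anxa7 (39.7 ± 5.87 FPKM) and Anxa6 (36.2 ± 4.70 FPKM) followed and could not be ordered, since Anxa5 exceeded Anxa7 in 5 of 9 livers and Anxa7 exceeded Anxa6 in 5. Anxa4 came next with 30.1 ± 3.41 FPKM, below Anxa6 in 8 of 9 livers.

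Anxa11 (17.4 ± 2.16 FPKM), S100a11 (14.9 ± 4.56 FPKM) and Anxa2 (11.6 ± 8.10 FPKM) formed a lower set whose ranges overlapped. Every liver had more Anxa4 than the highest Anxa11 value, and more Anxa2 than the highest Anxa1 value. Anxa1 (2.83 ± 0.897 FPKM) and Anxa3 (2.33 ± 1.05 FPKM) were lowest and overlapped, with Anxa1 above Anxa3 in 5 of 9 livers.

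**Figure D1:**
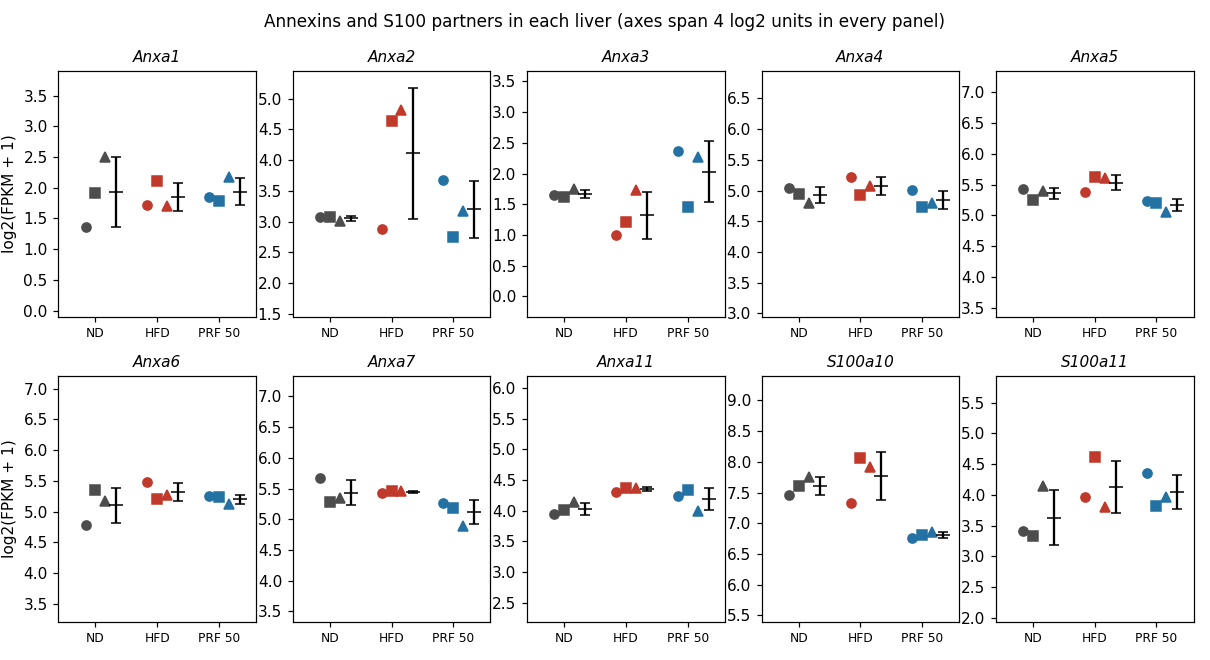
Level of each of the 10 genes, as log2(FPKM + 1), in each of the 9 livers by group, with the group mean and SD as black bars. Within a group, symbols stand for mice in the order of their numbers. S100a10 lay at 6.76 to 6.86 in PRF 50 and at 7.33 or above in all 6 other livers, and Anxa2 was 2.88 in HFD mouse 1 against 4.64 and 4.82 in the other HFD mice.

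S100a10, the small partner of Anxa2, lies on chromosome 3 (chr3:93555080-93564643, plus strand, GRCm38), 28.8 kb from S100a11. Its level, as log2(FPKM + 1) here and below unless FPKM is named, was 7.46, 7.61 and 7.76 in ND mice 6, 7 and 9. It was 7.33, 8.06 and 7.92 in HFD mice 1, 2 and 3, and 6.76, 6.81 and 6.86 in PRF 50 mice 3, 9 and 10. All 3 PRF 50 livers were below every liver of both other groups, while the ND and HFD livers overlapped.

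S100a10 was lower in PRF 50 than in HFD, with a log2 difference of -0.96 ± 0.19 (SE, 95% interval -1.39 to -0.53, adjusted p = 0.040), a fold of 1.94. It was the 1 gene of the 10 called in this comparison, at an adjusted p under 0.05, where 3.59% of 10084 genes tested were called. S100a10 was also lower in PRF 50 than in ND, by a log2 difference of -0.80 ± 0.12 (SE, adjusted p = 0.0447). It was again the 1 gene of the 10 called, where 0.458% of 10051 genes were called. The 2 comparisons share the PRF 50 livers, and a count of 1 gene gives no result about the set of 10.

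The S100a10 call was narrow. In PRF 50 against HFD it was lost without HFD mouse 2 (adjusted p = 0.116), HFD mouse 3 (0.137), PRF 50 mouse 3 (0.113), PRF 50 mouse 9 (0.0869) or PRF 50 mouse 10 (0.0796), and it was kept without HFD mouse 1 (0.00569). In PRF 50 against ND it was lost without any 1 of the 6 livers, with adjusted p from 0.0637 to 0.179. The call was also lost with quantile normalization (0.111 against HFD and 0.117 against ND) and with no minimum level (0.0796 and 0.094), and against ND with all 9 livers in 1 fit (0.0643). It was kept in 6 of 13 alternatives against HFD and in 4 of 13 against ND. The difference stayed below 0 under all 13 alternatives in each comparison, from -1.18 to -0.81 and from -0.88 to -0.68. Between HFD and ND the log2 difference was 0.16 ± 0.20 (SE, adjusted p = 0.752).

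**Figure D2:**
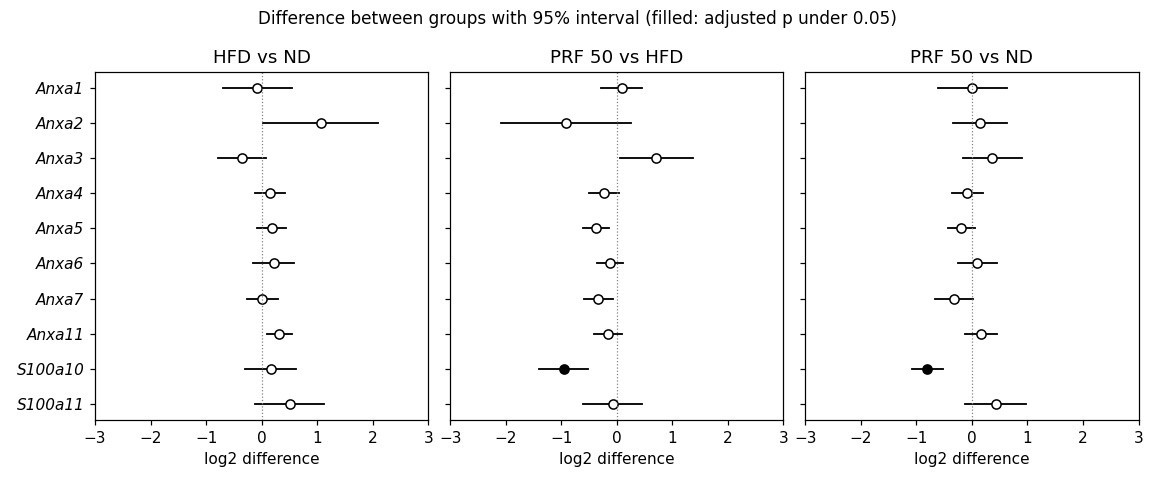
Log2 difference of each of the 10 genes with its 95% interval in the 3 comparisons, filled where the adjusted p was under 0.05. S100a10 is filled in both comparisons of PRF 50, at -0.96 and -0.80. Anxa2 has the widest interval in both comparisons of HFD, -2.09 to 0.26 in PRF 50 against HFD. Anxa1 has the widest in PRF 50 against ND, -0.61 to 0.63.

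Anxa2, which bridges membranes and binds actin as a complex with S100a10, lies on chromosome 9 (chr9:69453620-69491795, plus strand, GRCm38). Its level was 3.08, 3.07 and 3.004 in ND mice 6, 7 and 9. In HFD mice 1, 2 and 3 it was 2.88, 4.64 and 4.82, and in PRF 50 mice 3, 9 and 10 it was 3.67, 2.75 and 3.17. HFD mice 2 and 3 were above all other livers, while HFD mouse 1 lay below every ND liver, so the HFD group overlapped both others. The SD within HFD, 1.07, exceeded that of 99.6% of the 10048 genes that averaged 1 FPKM or more, and the SD within ND, 0.04, exceeded that of 5.13%.

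Between HFD and ND the Anxa2 log2 difference was 1.06 ± 0.45 (SE, 95% interval 0.03 to 2.09, adjusted p = 0.318). None of the 10 genes was called by limma in this comparison, where 1.33% of 9978 genes were called. At an unadjusted p under 0.05, 2 of the 10 passed (Anxa2 and Anxa11), where 15.1% of all genes did. Under the study's own kind of rule, an unadjusted p under 0.05 with a fold above 2, Anxa2 passed as 1 of the 10, where 1.34% of all genes passed. Genes on the opposite strand overlap Anxa1, Anxa2 and Anxa4.

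In PRF 50 against HFD the Anxa2 log2 difference was -0.91 ± 0.50 (SE, adjusted p = 0.365), and in PRF 50 against ND it was 0.15 ± 0.21 (SE, adjusted p = 0.801). Without HFD mouse 1 Anxa2 passed the threshold in both comparisons of HFD, with 1.68 against ND (adjusted p = 0.00208) and -1.53 for PRF 50 against HFD (adjusted p = 0.0465). The differences were smaller and not called without HFD mouse 2 (0.80 and -0.65) or HFD mouse 3 (0.71 and -0.56). Over all alternatives the adjusted p ran from 0.00208 to 0.689 and from 0.0465 to 0.650. These comparisons share the HFD mice, so their differences are not independent.

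The ratio of S100a10 to Anxa2 on the FPKM scale was 23.5, 26.3 and 30.8 in ND mice 6, 7 and 9. It was 25.1, 11.1 and 8.87 in HFD mice 1, 2 and 3, and 9.11, 19.5 and 14.4 in PRF 50 mice 3, 9 and 10. S100a10 thus exceeded Anxa2 in every liver, and the ratio was lower in HFD mice 2 and 3 and in PRF 50 than in ND. Anxa2 made up 4.05 to 4.30% of the summed FPKM of the 8 annexins in ND, 3.33, 11.7 and 12.8% in HFD mice 1, 2 and 3, and 3.52 to 6.56% in PRF 50.

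Among the annexins with higher levels, Anxa5, which binds phosphatidylserine, was 5.42, 5.25 and 5.40 in ND mice 6, 7 and 9. It was 5.39, 5.62 and 5.60 in HFD mice 1, 2 and 3, and 5.24, 5.21 and 5.06 in PRF 50 mice 3, 9 and 10. The PRF 50 livers lay below all other livers for this gene. Its difference in PRF 50 against HFD, -0.37 ± 0.10 (SE, 95% interval -0.60 to -0.13), missed the threshold (adjusted p = 0.0977).

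Anxa7, a calcium-dependent membrane fusion protein, was 5.67, 5.29 and 5.35 in ND mice 6, 7 and 9 and 5.42, 5.46 and 5.45 in HFD mice 1, 2 and 3. In PRF 50 mice 3, 9 and 10 it was 5.27, 5.18 and 4.89, again below all other livers. Its difference in PRF 50 against HFD was -0.33 ± 0.11 (SE, adjusted p = 0.156). The groups did not overlap for 3 of the 10 genes (Anxa5, Anxa7 and S100a10) in PRF 50 against HFD, where 26.2% of all genes tested did not overlap. At an unadjusted p under 0.05, 4 of the 10 passed in that comparison (Anxa3, Anxa5, Anxa7 and S100a10), where 20.2% of all genes did.

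The same 3 genes did not overlap in PRF 50 against ND, where 19.9% of all genes did not overlap. There 1 of the 10 passed at an unadjusted p under 0.05, where 12.5% of all genes did. None of the 10 passed an unadjusted p under 0.05 with a fold above 2 in PRF 50 against HFD, where 2.10% of genes passed, or in PRF 50 against ND, where 1.76% passed. The fold here is between means of log2 values and the p is from limma. These counts therefore do not stand for the study's own list of changed genes. For Anxa2 it was 1.88 in PRF 50 against HFD, with an unadjusted p of 0.109, while the means on the FPKM scale were 8.50 in PRF 50 and 19.2 in HFD.

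Anxa11, linked to RNA granules and vesicle traffic, was 3.95, 4.01 and 4.14 in ND mice 6, 7 and 9. It was 4.31, 4.36 and 4.38 in HFD mice 1, 2 and 3, and 4.25, 4.34 and 3.99 in PRF 50 mice 3, 9 and 10. The HFD livers were above all ND livers, and the PRF 50 livers spanned both. It was the 1 gene of the 10 whose HFD and ND groups did not overlap, where 20.7% of all genes did not overlap. The difference, 0.32 ± 0.10 (SE), missed the threshold (adjusted p = 0.189). An antisense gene, Anxa11os, overlaps it, and whether the counting used strand is not given in the sources used here.

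Anxa3 was the member with the largest positive difference in PRF 50 against HFD, 0.71 ± 0.28 (SE, adjusted p = 0.210). Its level was 1.64, 1.62 and 1.74 in ND mice 6, 7 and 9, 1.01, 1.21 and 1.74 in HFD mice 1, 2 and 3, and 2.36, 1.46 and 2.27 in PRF 50 mice 3, 9 and 10. PRF 50 mice 3 and 10 were above all other livers, and PRF 50 mouse 9 was within the range of HFD.

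The remaining annexins overlapped between groups in all 3 comparisons. Anxa4 ran from 4.73 to 5.22 over the 9 livers and Anxa6, the annexin with a doubled core, from 4.78 to 5.49. Anxa1, a regulator of inflammation, ran from 1.36 to 2.50, and its spread was widest in ND (SD 0.57). It was 1.36, 1.92 and 2.50 in ND mice 6, 7 and 9. The summed Kupffer cell and sinusoidal endothelium markers given below rose in the same order, and their part in this spread was not tested. The adjusted p of these 3 genes was 0.315 or above in each comparison.

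S100a11 was 3.41, 3.33 and 4.14 in ND mice 6, 7 and 9, 3.96, 4.61 and 3.81 in HFD mice 1, 2 and 3, and 4.36, 3.82 and 3.97 in PRF 50 mice 3, 9 and 10. ND mouse 9 lay among the livers of the other groups, and all 3 groups overlapped. The log2 difference was 0.50 ± 0.27 (SE, adjusted p = 0.437) in HFD against ND and 0.43 ± 0.23 (SE, adjusted p = 0.494) in PRF 50 against ND. A processed pseudogene of S100a11 exists on another chromosome, and whether reads were shared with it was not measured, so this level is uncertain.

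Over the 10 genes the median log2 difference was 0.17 in HFD against ND, with 8 above 0 and 2 below. Over all 9978 genes it was -0.01, with 4820 above 0 and 5158 below. In PRF 50 against HFD the median was -0.19, with 2 above 0 and 8 below, beside -0.02 over all 10084 genes, with 4740 above and 5344 below. In PRF 50 against ND it was 0.05, with 6 above and 4 below, beside -0.03 over all 10051 genes, with 4367 above and 5684 below.

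None of the other 4 annexins reached the testing minimum. Anxa13 was the most abundant of them, with a mean of 0.607 FPKM, and Anxa10 was listed at 0 in every liver. Of 14 other S100 genes 7 were tested in each comparison and none was called. S100a1 was the most abundant of them, with a mean of 212 FPKM, and S100a3, S100a5, S100a7a, S100a14 and S100z were listed at 0 in all livers. The median of the 7 was -0.01 in HFD against ND, 0.12 in PRF 50 against HFD and 0.36 in PRF 50 against ND.

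Among 17 binding partners and targets of annexins and S100 proteins, 8 were tested in HFD against ND and 9 in each other comparison, and none was called. Plasminogen (Plg), a ligand of the Anxa2 complex, was the most abundant with a mean of 778 FPKM, and Fpr3 was listed at 0. The medians were -0.04, 0.33 and 0.23 in HFD against ND, PRF 50 against HFD and PRF 50 against ND. Of 16 cortical cytoskeleton genes, all tested, 1 was called in each of 2 comparisons and none in PRF 50 against ND. The tetraspanin Cd9 was lower in HFD than in ND (-0.99 ± 0.16, SE, adjusted p = 0.0309). The membrane linker moesin (Msn) was higher in PRF 50 than in HFD (1.19 ± 0.23, SE, adjusted p = 0.0414). The medians of this list were 0.13, 0.28 and 0.17 in the same order, and Tmsb4x was its most abundant gene with a mean of 252 FPKM.

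The 16 lipid droplet and steatosis genes were chosen with earlier results of these data known, so their counts and medians are a description. Of the 16, 14 were tested in HFD against ND, where 1.33% of all genes were called. Both of the 2 called were higher in HFD, with a median difference of 0.78 over the 14. The apolipoprotein Apoa4 was the larger, 2.86 ± 0.33 (SE, adjusted p = 0.011), and the perilipin Plin4 was 1.06 ± 0.14 (SE, adjusted p = 0.0146). Of the 14 tested in PRF 50 against HFD, 9 were called, all lower, with a median of -1.36, beside 144 genes higher and 218 lower over all genes tested. They included the fatty acid transporter Cd36 (-2.31 ± 0.35, SE, adjusted p = 0.0249), the lipase inhibitor G0s2 (-1.89 ± 0.25, SE, adjusted p = 0.0183), Apoa4 (-2.10), Plin4 (-1.50), the adipogenic receptor Pparg (-1.25) and Plin5 (-0.80). Leaving out 1 liver at a time gave 9 calls without HFD mouse 1, 0 without HFD mouse 2 or 3, 1 without PRF 50 mouse 3, 10 without mouse 9 and 3 without mouse 10. Of 12 tested in PRF 50 against ND, 2 were called, Cd36 (-0.78, adjusted p = 0.0229) and Pparg (-1.12, adjusted p = 0.0416), with a median of -0.51. In that comparison 0.458% of all genes were called.

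HFD mouse 1, low in Anxa2, was also low in part of this list. Cd36 was 5.08, 6.34 and 6.55 in HFD mice 1, 2 and 3, and G0s2 was 7.68, 8.63 and 8.51. HFD mouse 1 was the lowest of the HFD livers for 10 of 14 of these genes, against 35.2% of 10048 genes overall. Plin5 went the other way, with 4.44 in HFD mouse 1 and 4.02 and 4.23 in the others. HFD mouse 1 was also lowest for 6 of the 10 annexin and S100 genes, 10 of 10 sinusoidal endothelium markers, 10 of 10 Kupffer cell markers and 7 of 9 stellate cell and fibroblast markers. It was highest for 9 of 9 hepatocyte markers, against 41.4% of all genes. ND mouse 6 was lowest of its group for 9 of 10 sinusoidal endothelium and 9 of 10 Kupffer cell markers, against 36.6% of all genes. It was also lowest for 8 of 9 stellate cell and fibroblast markers and highest for 6 of 9 hepatocyte markers. Its Anxa2 level, 3.08, was the highest of the ND livers. ND mouse 9 was highest of its group for 10 of 10 markers of both the sinusoidal endothelium and Kupffer cell lists. The part of these differences in the Anxa2 values was not tested.

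**Figure D3:**
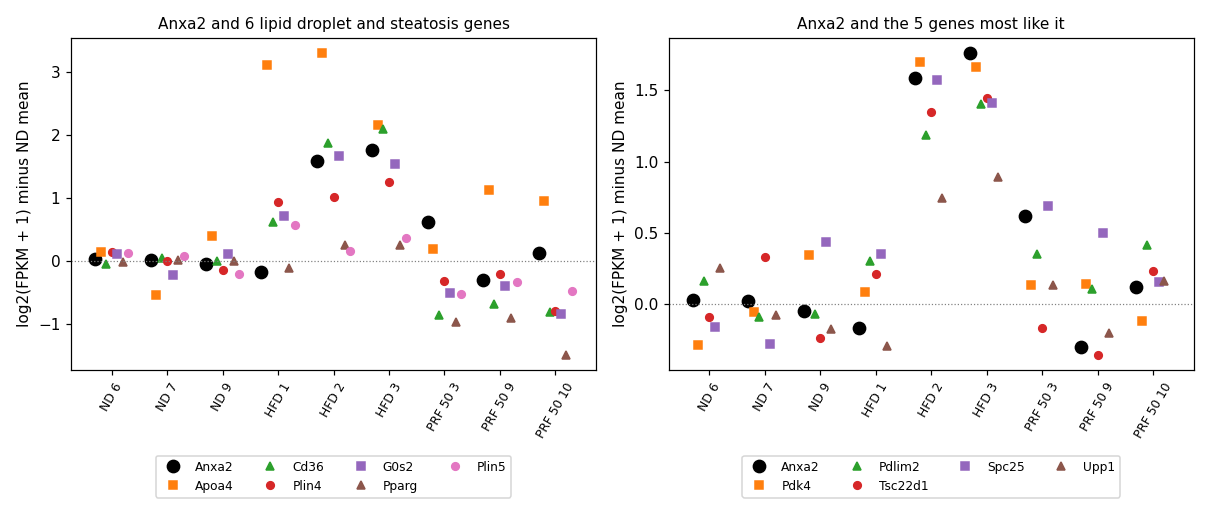
Level of Anxa2 in each liver minus its ND mean, on the log2 scale, beside 6 lipid droplet and steatosis genes (left) and the 5 genes with the most similar profile (right). HFD mice 2 and 3 are the 2 highest livers for Anxa2, at 4.64 and 4.82, and HFD mouse 1, at 2.88, lies below the 3 ND livers.

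The data are from whole liver, in which fewer cells of a type and less RNA per cell cannot be told apart. The 10 Kupffer cell markers had a summed level of 92.4, 173 and 217 FPKM in ND mice 6, 7 and 9, and of 111, 177 and 177 FPKM in HFD mice 1, 2 and 3. In PRF 50 mice 3, 9 and 10 it was 610.1, 369.6 and 391 FPKM, above all other livers. These 10 markers were chosen with earlier results of these data known, so their counts and medians are a description. Of the 10 markers 9 were called higher in PRF 50 than in HFD, where 3.59% of all genes were called. The median difference was 1.45. Among the 9 were Timd4 (1.49 ± 0.19, SE, adjusted p = 0.015), Vsig4 (1.27 ± 0.17, SE, adjusted p = 0.0182), C1qb (1.45), C1qc (1.45), Csf1r (1.40) and Adgre1 (1.60). The number called was 7 without HFD mouse 1, 1 without HFD mouse 2, 0 without HFD mouse 3, 1 without PRF 50 mouse 3, 8 without mouse 9 and 5 without mouse 10. None was called in PRF 50 against ND (median 1.40) or in HFD against ND (median 0.00). In PRF 50 against ND 10 of 10 passed an unadjusted p under 0.05 with a fold above 2, where 1.76% of all genes passed. Cd5l was the most abundant marker, with a mean of 54.1 FPKM, and none was at 0. S100a10 was lower in the group in which these markers were higher, and their part in that result was not tested.

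Summed sinusoidal endothelium markers were 73.1, 92.9 and 122 FPKM in ND mice 6, 7 and 9, 28.4, 63.9 and 88.9 FPKM in HFD mice 1, 2 and 3, and 71.5, 68.3 and 116 FPKM in PRF 50 mice 3, 9 and 10. All 10 were tested, none was called, and Clec4g was the most abundant (mean 30.5 FPKM). Summed neutrophil markers were 3.28, 9.59 and 6.67 FPKM in ND mice 6, 7 and 9 and 4.65, 4.37 and 5.21 FPKM in HFD mice 1, 2 and 3. In PRF 50 mice 3, 9 and 10 they were 58.1, 19.9 and 3.82 FPKM, so that 1 liver held most of this signal. S100a8, the most abundant neutrophil marker and itself an S100 gene, was 4.98, 3.38 and 1.30 in PRF 50 mice 3, 9 and 10. PRF 50 mouse 3 was also the highest of its group for 7 of the 10 annexin and S100 genes described here, Anxa2 and Anxa3 among them, against 34.3% of 10048 genes overall. The same liver was the highest of its group for 10 of 10 Kupffer cell markers. The part of neutrophil and Kupffer cell RNA in the annexin and S100 values was not tested.

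Of 10 stellate cell and fibroblast markers none of those tested was called in any comparison, and their sum ran from 63.4 FPKM in ND mouse 6 to 139 FPKM in PRF 50 mouse 10, led by Dcn (mean 77.3 FPKM). The cholangiocyte list summed to 29.3 to 46.8 FPKM, led by Spp1 (28.8 FPKM), and none of the markers tested was called. Monocyte and recruited macrophage markers summed to 9.90 to 22.8 FPKM, of which Cd9, also in the cytoskeleton list, had a mean of 12.9 FPKM. Only 1 of the 10 was tested in HFD against ND and 2 in each other comparison. Cd9 was the 1 marker called, lower in HFD than in ND, and its call gives no result about the list. Mesothelium markers summed to 0.920 to 3.25 FPKM, led by Krt19 (0.719 FPKM), and lymphocyte markers to 1.90 to 6.73 FPKM, led by Cd79b (0.892 FPKM). None of these reached the testing minimum except Cd79b in PRF 50 against ND, where it was not called. None of the 9 hepatocyte markers tested was called.

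**Figure D4:**
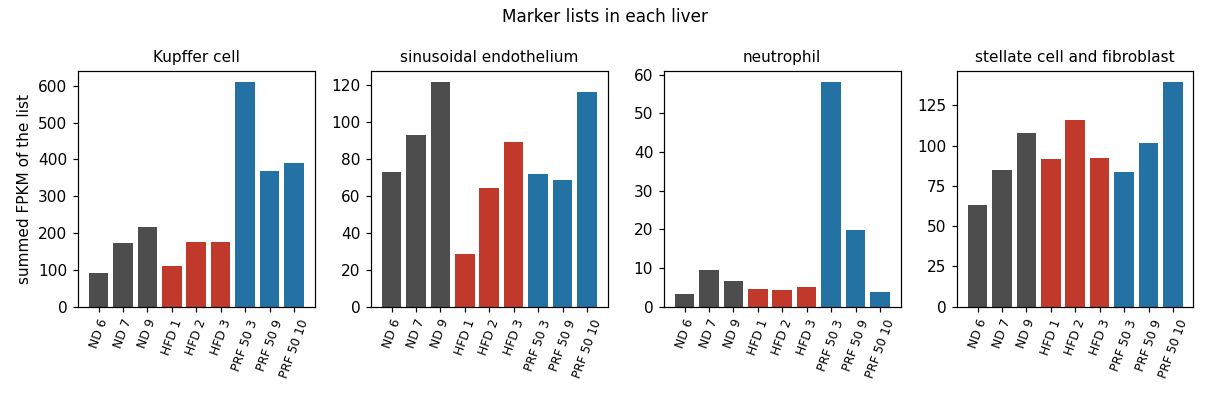
Summed FPKM of 4 marker lists in each liver, with bars from 0 and coloured by group. The Kupffer cell list is at 610.1, 369.6 and 391 FPKM in PRF 50 mice 3, 9 and 10 and at or below 217 FPKM elsewhere, and the neutrophil list reaches 58.1 FPKM in PRF 50 mouse 3.

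The genes most like S100a10 over the 9 livers, by the root mean square (RMS) difference of values centred on each gene's mean, were Gpd1 (0.12), Ces2e (0.16), 4931406C07Rik (0.18), Chpt1 (0.22) and Abcd3 (0.23). Gpd1 encodes a cytosolic glycerol-3-phosphate dehydrogenase, Chpt1 a cholinephosphotransferase and Abcd3 a peroxisomal transporter. For all 5 the PRF 50 livers lay below all other livers. Since they were picked for their likeness, that separation is a description.

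**Figure D5:**
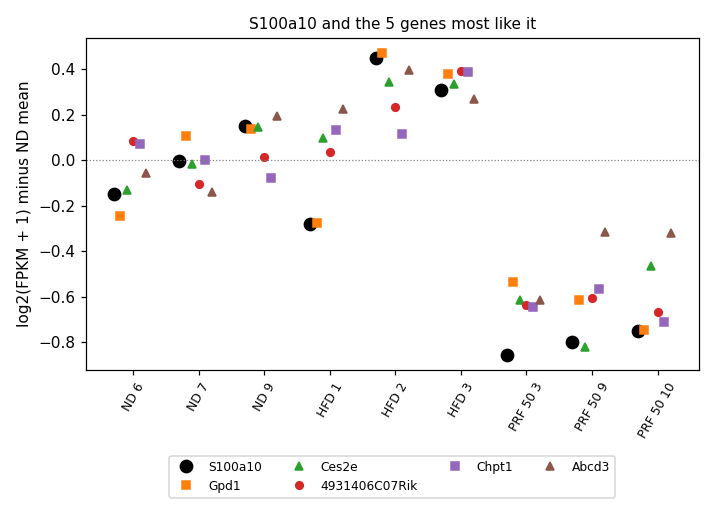
Level of S100a10 and of the 5 genes with the most similar profile in each liver, minus each gene's ND mean, on the log2 scale. S100a10 lay at 6.76, 6.81 and 6.86 in PRF 50 mice 3, 9 and 10, the lowest livers for all 6 genes.

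The genes most like Anxa2 were Pdk4 (RMS difference 0.30), Pdlim2 (0.31), Tsc22d1 (0.33), Spc25 (0.38) and Upp1 (0.38). Pdk4, a kinase that inhibits pyruvate dehydrogenase, was 0.71, 2.33 and 2.29 in HFD mice 1, 2 and 3. These genes too were picked for their likeness, so the low value in HFD mouse 1 is a description. Those most like Anxa5 were Cog6 (0.05), Plekha8 (0.05), Mrpl16 (0.06), Uso1 (0.06) and Rassf3 (0.06). Those most like S100a11 were Mppe1 (0.21), Ecscr (0.23), Gm12669 (0.23), Rab34 (0.23) and Capg (0.23), the last an actin-capping protein of the cytoskeleton list.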

How the data were processed

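Poly(A) liver RNA was sequenced with 1 directional library per mouse. Per the study's methods and the submitters' processing notes, the authors trimmed reads, mapped them to mm10 with TopHat, estimated FPKM with Cufflinks and applied a geometric normalization. The deposited values were read as log2(FPKM + 1), with a lowest value of exactly 0. Neither the scale nor the pseudocount is stated in the labels or the study's methods. Tool versions and the annotation are not given in the sources used here. A difference on this scale understates the change of low genes.

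Each comparison was fitted with limma 3.58.1 (R 4.3.3, lmFit, eBayes with a trend) on the 6 livers of its 2 groups, over every gene averaging 1 FPKM or more in those livers, with Benjamini-Hochberg adjustment over all of them and a threshold of 0.05. Intervals are 95%. Tables and figures were made with Python 3.11.15, pandas 2.3.3, numpy 2.4.6 and matplotlib 3.10.9. The fit was also run on simulated data, with normal noise and the same SD in both groups for each gene. No result of that run is used here.

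The members and lists were chosen with earlier results of these data known. Named were all 10 members, list genes called in a comparison (the 6 with the smallest p where more than 6 were called), each list's most abundant gene and genes at 0 and, for Anxa2, Anxa5, S100a10 and S100a11, the 5 nearest genes among those averaging 1 FPKM or more and an SD of at least 0.5 times that of the member. Positions are from GENCODE M21, GRCm38. Promoters were to be shown if members moved together, and 1 member was called, so none is shown.

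Alternatives were all 9 livers in 1 fit, each liver left out, quantile normalization, a pseudocount of 0.1, no trend in eBayes, no minimum or 10 FPKM, scaling by median of ratios, and an unadjusted p with a fold rule. Ly6g, Muc16 and Trbc2 of the marker lists were not found in the tables.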

Additional observations from a re-analysis of the deposited data

How the results depend on the processing

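Of 383 alternative values of the 30 differences (10 genes in 3 comparisons), 353 kept their direction and side of the threshold, 16 lost the call (all of S100a10), 2 gained one (both of Anxa2, without HFD mouse 1) and 12 changed sign, none of them called. Leaving out 1 liver at a time, the differences that changed sign ran from -0.36 to 0.21 (Anxa1) and -0.063 to 0.13 (Anxa7) in HFD against ND, from -0.035 to 0.22 (Anxa1) and -0.23 to 0.17 (S100a11) in PRF 50 against HFD, and from -0.27 to 0.29 (Anxa1), -0.091 to 0.37 (Anxa2) and -0.059 to 0.23 (Anxa6) in PRF 50 against ND. With quantile normalization Anxa1 was -0.042 and Anxa4 0.0005 in PRF 50 against ND.

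With 1 liver left out, genes called ran from 35 (without HFD mouse 3) to 140 in HFD against ND, from 15 (without HFD mouse 3) to 242 in PRF 50 against HFD and from 4 (without ND mouse 7) to 71 in PRF 50 against ND, beside 133, 362 and 46 with all livers. Members called ran from 0 to 1, 0 to 2 and 0 to 0. Chosen after seeing the data, the lipid droplet and steatosis list ran from 0 to 10 and the Kupffer cell list from 0 to 8 in PRF 50 against HFD. A fit with fewer livers has fewer degrees of freedom.

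With no minimum level 37, 126 and 11 genes were called in the 3 comparisons, with more genes adjusted over, and 0 members in either comparison of PRF 50. Quantile normalization also gave 0 members in both. All 9 livers in 1 fit gave 107 genes and 0 members in PRF 50 against ND. The unadjusted rule with a fold above 2 gave 212 and 177 genes in the comparisons of PRF 50, with 0 members in each, and 1 member in HFD against ND. The cause of these shifts was not tested further. No paired analysis was made, because the numbers do not pair mice across groups.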

Other observations

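Fpr1, a formyl peptide receptor for which Anxa1 is a ligand, was chosen after its values were seen. It was 0.82, 1.11 and 1.30 in ND mice 6, 7 and 9, 0.29, 1.44 and 1.42 in HFD mice 1, 2 and 3, and above all of these in PRF 50, with a mean of 2.19 ± 0.36 (SD, n = 3). Its log2 difference was 1.14 ± 0.33 (SE, adjusted p = 0.112) in PRF 50 against HFD and 1.11 ± 0.21 (SE, adjusted p = 0.0749) in PRF 50 against ND, and neither passed the threshold. The galectin gene Lgals1, also chosen after its values were seen, was 5.41, 6.70 and 7.10 in HFD mice 1, 2 and 3, with a log2 difference of -1.89 ± 0.44 (SE, adjusted p = 0.0676) in PRF 50 against HFD.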
